A study of Mus musculus with 2 samples.

Results

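The nuclear-encoded respiratory chain genes are 91 of the 28692 genes in the 2 deposited matrices. They were chosen by symbol: every gene whose symbol starts with Nduf, Uqcr, Sdh followed by a to d, Atp5, or Cox followed by 4 to 8, without pseudogene symbols and without genes below 200 unique molecular identifiers (UMIs, 1 per captured RNA molecule) over both matrices. Of 96 matching symbols, 91 passed that minimum. Cox7a1 and Atp5s lay just above it, with 423 and 741 UMIs. Cox6a2, a muscle isoform of a complex IV subunit, lay just below it with 47 UMIs, and Cox7b2, Cox8b, Cox8c and Ndufa4l2 had 0 UMIs in both matrices. By the roles assigned here, 36 members are subunits of complex I, 4 of complex II, 8 of complex III, 15 of complex IV (with Ndufa4, now counted as a complex IV subunit) and 15 of complex V, and the other 13 are assembly factors or related proteins.

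The study took stem- and progenitor-enriched bone marrow cells from C57BL/6 mice, 5 by the series' design text, and infected them with a retrovirus carrying an shRNA against Cxxc5 or, as control, one with no mouse target. Cells carrying GFP that lacked lineage markers and bore Sca-1 and Kit (LSK cells) were sorted and grown for 3 days in medium with 20% fetal bovine serum and 10 ng/ml each of GM-CSF and SCF, which drives myeloid differentiation. Both groups carried a retrovirus and received the same medium. In each group 5 samples were pooled into 1 library for droplet-based 3′ single-cell RNA sequencing, so there is 1 library per group, no spread between mice and no test between the groups. Whether the same 5 mice gave both pools is not stated in the sources used here.

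The control shRNA library held 2912 cells and the Cxxc5 shRNA library 6004 cells after filtering, with median depths of 17197 and 10599 UMIs per cell. Levels are given as UMIs per 1000000 UMIs of the library or gate (CPM), control first. The target gene Cxxc5 had 462 and 73 UMIs, or 9.38 and 1.16 CPM. The LSK-defining surface genes were low after culture: Kit was at 24.1 and 25.2 CPM and Ly6a (Sca-1) at 10.1 and 7.52 CPM in the control and knockdown libraries. Among cell barcodes, 26 occurred in both libraries. All intervals below are 95% intervals for counting error alone. Each UMI is a tag from the 3′ end of 1 molecule, so levels were not divided by transcript length.

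The respiratory chain passes electrons from NADH (complex I) and from succinate (complex II) through ubiquinone, complex III and cytochrome c to oxygen at complex IV, and complex V, the ATP synthase, uses the resulting proton gradient. Complexes I, III, IV and V combine subunits encoded in the nucleus with 13 encoded by mitochondrial DNA, while complex II is wholly nuclear-encoded. Maturing neutrophils are known for relying on glycolysis and for holding few mitochondria compared with their precursors. Transcription of nuclear respiratory genes is classically tied to the factors NRF1, GABP (an ETS factor), YY1 and CREB.

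The members Atp5g1, Atp5g2 and Atp5g3, encode the same mature protein, subunit c of the rotor ring of complex V, and differ in the leader peptide that directs it into mitochondria. The last 75 codons of their GENCODE transcripts translate to identical residues in all 3 genes, while the coding bases differ at 57 of 225 positions. They are shown because the balance among these 3 genes differed between cell types, as described further on. Capitals mark the positions at which the 3 coding sequences are not all alike. On GRCm38, Atp5g1 lies at chr11:96068852-96075670, Atp5g2 at chr15:102662864-102672352 and Atp5g3 at chr2:73908447-73911326, all on the minus strand, and each sequence is given 5′ to 3′ on the coding strand without the stop codon.
Atp5g1: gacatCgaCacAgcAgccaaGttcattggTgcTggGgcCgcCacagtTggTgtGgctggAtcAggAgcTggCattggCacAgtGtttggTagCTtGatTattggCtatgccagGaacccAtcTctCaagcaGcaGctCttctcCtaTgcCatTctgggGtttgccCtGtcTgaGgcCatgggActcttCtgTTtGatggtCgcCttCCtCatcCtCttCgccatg
Atp5g2: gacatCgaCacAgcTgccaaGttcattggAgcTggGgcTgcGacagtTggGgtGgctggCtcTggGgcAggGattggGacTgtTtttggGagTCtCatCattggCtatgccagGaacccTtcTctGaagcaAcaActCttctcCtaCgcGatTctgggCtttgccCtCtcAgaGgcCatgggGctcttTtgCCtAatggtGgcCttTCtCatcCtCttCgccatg
Atp5g3: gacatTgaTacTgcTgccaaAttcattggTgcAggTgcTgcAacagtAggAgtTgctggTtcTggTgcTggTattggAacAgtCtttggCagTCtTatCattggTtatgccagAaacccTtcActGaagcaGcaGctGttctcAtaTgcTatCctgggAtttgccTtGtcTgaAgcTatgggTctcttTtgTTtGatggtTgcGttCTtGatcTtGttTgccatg
Atp5g1 and Atp5g2 shared 191 of the 225 bases, Atp5g1 and Atp5g3 180, and Atp5g2 and Atp5g3 177. The leaders were 61, 71 and 66 residues long. Since tags come from 3′ ends, those were checked separately: 39.9% of the 50-base words in the last 400 bases of Atp5g1 transcripts and 51.4% of those of Atp5g2 also occur in another annotated gene, against 0% for Atp5g3. Over all members, 35 of 91 shared at least 1 such word with another gene, and 4 shared over 50% of them (Atp5g2, Atp5h, Atp5l and Ndufs3), so reads of these 4 may have been split or discarded in the authors' counting.

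Promoter windows running from 250 bases before to 50 bases after the start were matched for 78 of the 91 members in the RefSeq table (GRCm38.p6). The NRF1 motif, GCGC then any base then TGCGC, searched like the others on both strands, occurred in the windows of 26.9% of members, against 5.19% of all genes of that table and 13.1% of genes with at least 200 UMIs here. It was found for 2 of 3 complex II genes, 6 of 14 complex V genes, 4 of 12 assembly genes, 7 of 32 complex I genes, 1 of 5 complex III genes and 1 of 12 complex IV genes. The YY1 motif AAGATGGC occurred for 14.1% of members, against 6.16% of genes with at least 200 UMIs. The ETS motif CCGGAAG (25.6% against 23.2%) and the cyclic AMP response element TGACGTCA (5.13% against 3.93%) were about as frequent among members as among those other genes. Ndufaf4, Ndufb4, Sdha, Cox6a1, Ndufa11 and Atp5k had an NRF1 match upstream of the start, shown here with the match in capitals on each gene's own strand, the first 3 because they were among the members lower in late neutrophils and the last 3 because they were not.
Ndufaf4: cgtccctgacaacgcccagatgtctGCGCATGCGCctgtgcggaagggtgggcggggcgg
Ndufb4: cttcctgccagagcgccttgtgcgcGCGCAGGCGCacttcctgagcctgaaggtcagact
Sdha: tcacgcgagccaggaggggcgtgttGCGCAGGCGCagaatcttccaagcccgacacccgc
Cox6a1: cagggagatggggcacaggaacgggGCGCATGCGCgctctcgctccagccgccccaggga
Ndufa11: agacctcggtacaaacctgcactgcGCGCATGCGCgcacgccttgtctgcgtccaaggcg
Atp5k: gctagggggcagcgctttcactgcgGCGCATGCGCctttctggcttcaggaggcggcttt
In order, these windows lie on GRCm38.p6 at chr4:24897945-24898004 (plus strand), chr16:37654413-37654472 (minus strand), chr13:74350261-74350320 (minus strand), chr5:115349086-115349145 (minus strand), chr17:56717677-56717736 (plus strand) and chr5:108434415-108434474 (minus strand).

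Between the 2 libraries, the respiratory chain genes as a whole lay close together. All members summed to 3.32% of UMIs in the control library and 3.40% in the knockdown library, a log2 ratio of 0.03. Per cell, the median was 581.5 member UMIs in the control library and 367 in the knockdown library, in step with their depths. A member was called different where the 2 libraries were at least 1.2-fold apart in CPM. Over all cells 1 of 91 members was at least 1.2-fold higher in the knockdown library and 0 were lower, where among all 9763 genes with at least 200 UMIs 13.8% were called (5.45% higher and 8.34% lower). Ratios of shallow genes scatter more, and many members are read deeply. Among the 481 genes at or above the median member's depth of 33695 UMIs the share was 5.41% (1.66% higher and 3.74% lower). Neither set matches the members in depth, and the called member lay below that median. The median member ratio was 0.03 on the log2 scale, against 0.02 for all genes.

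The called member was Cox6b2, a complex IV isoform best known from testis, with 388 control and 600 knockdown UMIs (7.88 and 9.54 CPM), a log2 ratio of 0.28 with an interval from 0.09 to 0.47. The ratio was 0.26 with cells weighted equally or with ratios centred on all genes, and 0.14 with cells thinned to 2000 UMIs, all below 1.2-fold. Its common counterpart Cox6b1 stood at 757 and 726 CPM, a log2 ratio of -0.06. At the other end was Ndufa1, a small X-linked accessory subunit of complex I, at 144 CPM for control and 128 CPM for knockdown cells. That log2 ratio of -0.17 had an interval from -0.22 to -0.12, and the gene was lower with knockdown in all 5 gates with at least 100 cells per library, with log2 ratios from -0.02 to -0.25, and its interval lay below 0 in progenitors and late neutrophils.

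**Figure D1:**
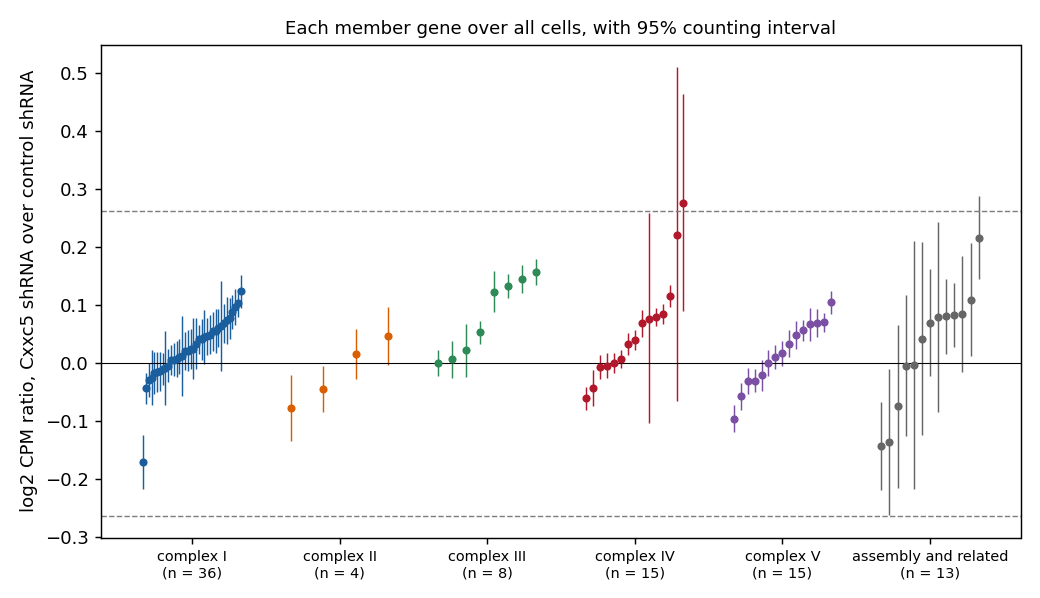
Log2 ratio of CPM in the Cxxc5 shRNA library over the control shRNA library (vertical axis) for each of the 91 members over all cells, grouped by complex, with 95% counting intervals as bars and dashed lines at 1.2-fold. All points but Cox6b2 of complex IV lie between the dashed lines, and the 8 complex III genes all lie at or above 0.

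By complex, the libraries differed most for complex III, and all differences were small. Complex I genes summed to 9338 and 9535 CPM (log2 0.03), and the highest ratio within it was that of Ndufc1, an accessory subunit, at 347 and 379 CPM (log2 0.12). Complex II, succinate dehydrogenase, summed to 557 and 552 CPM (log2 -0.01, of the opposite sign with cells thinned or weighted equally), with its members between -0.08 for the membrane anchor Sdhc and 0.05 for the flavoprotein Sdha. Complex III summed to 3646 and 3874 CPM, a log2 ratio of 0.09 with an interval from 0.08 to 0.10. Its small accessory subunit Uqcrq was highest, at 542 and 605 CPM (log2 0.16), followed by Uqcr10 at 477 and 527 CPM (0.14) and Uqcr11 at 658 and 722 CPM (0.13). Uqcrh, the hinge subunit, was at 587 CPM in both libraries. The knockdown cells had the higher complex III sum in all 6 gates, by 0.04 to 0.11, though in dendritic cells the interval included 0.

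Complex IV, cytochrome c oxidase, summed to 9954 and 10188 CPM (log2 0.03), and complex V to 9281 and 9422 CPM (0.02, and slightly below 0 with ratios centred on all genes). The most abundant members were both in complex IV: Cox8a, with 140948 UMIs over both matrices, at 1218 and 1287 CPM, and Cox4i1 at 1229 and 1236 CPM. Complex V ran from Atp5h, subunit d of the peripheral stalk, at 526 and 492 CPM (log2 -0.10), to Atp5b, the catalytic beta subunit, at 712 and 765 CPM (0.11). The assembly genes summed to 445 and 462 CPM (0.06). Among them Ndufaf3, which works with Ndufaf4 in complex I assembly, was highest at 53.7 and 62.3 CPM (0.22), and Sdhaf4, a chaperone of Sdha, lowest at 52.3 and 47.4 CPM (-0.14). The 13 mitochondrially encoded subunits summed to 38948 and 39777 CPM (0.03), beside the members' own 0.03.

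Cell types were set by marker sums. Late neutrophils were taken by secondary granule genes such as Ltf, Camp and Ngp, early neutrophils by S100a8, S100a9 and Fcnb without the late genes, monocytes by genes such as Csf1r, Ccr2 and F13a1, dendritic cells by MHC class II genes and Ccl17, mast cells and basophils by genes such as Mcpt8, Cpa3 and Gata2, and progenitors by granule protease genes such as Mpo and Elane with few S100a8-type UMIs. The progenitor gate held 409 control and 1126 knockdown cells, the early neutrophil gate 435 and 912, the late neutrophil gate 467 and 678, the monocyte gate 239 and 299, the mast cell and basophil gate 100 and 195, and the dendritic gate 38 and 31. Another 1194 and 2723 cells passed no gate. Within a factor of 5/4 of the progenitor cut lay 679 control and 1533 knockdown cells, so that gate is a range along a continuum. Its granule protease genes, all but Mpo, were higher still in early neutrophils of both libraries. Elane was at 8101 and 7708 CPM in progenitors and 13077 and 12434 CPM in early neutrophils. The name progenitor thus stands for cells with these transcripts and few S100a8-type UMIs. Of 5 lymphoid genes looked at, Cd3e and Ebf1 had 0 UMIs, Cd79a and Il7r under 1 CPM, and Cd79b was at 14.2 and 14.4 CPM. Among stromal and endothelial genes Cxcl12 had 0 UMIs and Pecam1, which leukocytes also express, was at 53.7 and 46.1 CPM, and the platelet gene Pf4 was at 28.8 and 24.6 CPM.

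Late neutrophils held less respiratory chain RNA than progenitors, in both libraries. Members summed to 35483 CPM in control and 35610 CPM in knockdown progenitors, and to 27583 and 28510 CPM in late neutrophils. The log2 ratios were -0.36 in the control library (interval -0.37 to -0.35) and -0.32 in the knockdown library (-0.33 to -0.31). With the 50 genes of most UMIs left out of the denominator they were -0.21 and -0.18. Counted per cell, the median share of UMIs from members went from 3.54% and 3.56% in progenitors to 2.65% and 2.83% in late neutrophils. Late neutrophils were also shallower, with medians of 12518 and 8257 UMIs against 19665 and 10820.5 in progenitors, and fewer molecules per cell cannot be told apart from a lower capture rate.

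For contrasts between gates a gene was called where it was at least 1.5-fold apart in the same direction in both libraries. In late neutrophils 30 of 91 members were lower and 1 was higher than in progenitors, where among all 9527 genes tested 37.4% were lower and 7.85% higher. The median member ratio was -0.49 and -0.44, beside -0.50 and -0.48 for all genes. The share of members that were lower was thus near that of all genes, and the complexes differed among themselves. By complex, 3 of 4 complex II genes, 9 of 13 assembly genes, 3 of 8 complex III genes, 10 of 36 complex I genes, 4 of 15 complex V genes and 1 of 15 complex IV genes were lower. The summed log2 ratios were -1.11 and -0.90 for assembly genes, -0.82 and -0.78 for complex II, -0.51 and -0.48 for complex III, -0.42 and -0.38 for complex V, -0.35 and -0.30 for complex I, and -0.23 and -0.19 for complex IV, giving the control library first. Without the 50 genes of most UMIs in the denominator complex IV was at -0.07 and -0.05. For comparison, the mitochondrially encoded subunits were at -0.26 and -0.32.

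**Figure D2:**
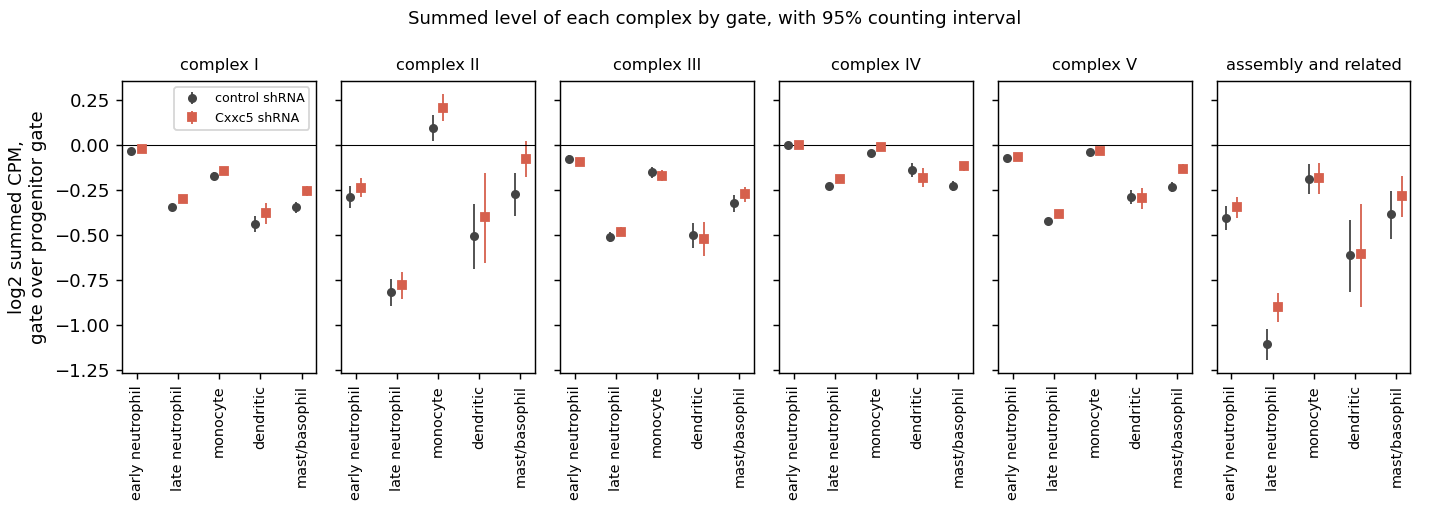
Log2 ratio of each complex's summed CPM in a gate over the progenitor gate (vertical axis), for 5 gates, in the control (circles) and knockdown (squares) libraries, with 95% counting intervals. Late neutrophils are lowest for complex II and the assembly genes, near -0.8 to -1.1, and complex IV stays above -0.25 in every gate.

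Because complex IV genes differed least, their share of all member UMIs was higher in late neutrophils. Complex IV made up 29.4% and 29.5% of member UMIs in progenitors and 32.3% in late neutrophils of both libraries. Complex II went from 1.71% and 1.63% to 1.251% and 1.19%, assembly genes from 1.47% and 1.44% to 0.88% and 0.96%, and complex III from 11.2% and 11.7% to 10.1% and 10.4%. In each case the 2 libraries lay closer together than the 2 gates.

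Single members show how uneven this was. Within complex II, Sdhd, a membrane anchor, stood at 189 and 174 CPM in progenitors and 93.3 and 89.7 CPM in late neutrophils, log2 ratios of -1.02 and -0.96. Sdha, which oxidises succinate, went from 128 and 127 CPM to 71.2 and 64.4 CPM. The smallest difference in that complex was that of Sdhc, at -0.44 in both libraries, which missed the 1.5-fold threshold.

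Complex I held both the highest ratio of any member and a group of lower genes. Ndufa12, an accessory subunit, was lowest of the complex, at 313 and 297 CPM in progenitors and 157 and 158 CPM in late neutrophils (log2 -0.996 and -0.907). Of the 7 core subunits 3 were called lower, namely Ndufs1, Ndufs3 and Ndufs7, and of the 29 accessory subunits 7 were. Ndufv3, an accessory subunit of the NADH-oxidising module, went the other way. It was at 309 and 314 CPM in progenitors, 463 and 439 CPM in early neutrophils and 509 and 498 CPM in late neutrophils, and at 230 and 215 CPM in monocytes. Its late neutrophil log2 ratios were 0.72 and 0.66, and with all gate cuts doubled they were 0.16 and 0.32, below the threshold; with each cell thinned to 2000 UMIs they were 0.52 and 0.70, the first of them below it. Ndufa1 was the next highest complex I member by the control library, at 0.24 and 0.17, below the threshold.

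In complex III the accessory subunits Uqcr10, Uqcr11 and Uqcrq were called lower and the others were not. Uqcr11 was at 771 and 823 CPM in progenitors and 373 and 426 CPM in late neutrophils (log2 -1.05 and -0.95), and Uqcrq at 623 and 680 against 323 and 377 CPM. The core subunits Uqcrc1, Uqcrc2 and Uqcrfs1 were between -0.63 and -0.50 and none was called. Uqcrb, an accessory subunit, was at 766 and 777 CPM in progenitors and 808 and 841 CPM in late neutrophils, a log2 ratio of 0.08 and 0.11, and the hinge subunit Uqcrh was at -0.21 and -0.27.

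Complex IV differed least of the complexes by its sum. Cox5a was at 1006 and 1016 CPM in progenitors and 1029 and 1123 CPM in late neutrophils (log2 0.03 and 0.14), and Cox6a1 at 704 and 709 against 724 and 716 CPM. The most abundant members were lower without reaching 1.5-fold: Cox8a was at -0.43 and -0.34 and Cox4i1 at -0.26 and -0.32. Cox7c, the lowest of the abundant ones, had log2 ratios of -0.47 and -0.46, and Cox7b, Cox6b1 and Cox5b lay between -0.43 and -0.24. The 1 complex IV gene called lower, Cox4i2, had only 13 and 2 UMIs in late neutrophils and 30 and 42 in progenitors, so that its ratios of -0.86 (interval -1.92 to 0.12) and -3.29 (-6.38 to -1.35) are loosely fixed. With gate cuts doubled it had 0 UMIs in progenitors and no ratio.

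The subunit c genes of complex V separated from one another. Atp5g1 was at 1248 and 1266 CPM in progenitors, 1010 and 1036 CPM in early neutrophils and 503 and 537 CPM in late neutrophils, log2 ratios of -1.31 and -1.24 for late neutrophils over progenitors. Atp5g2 went from 640 and 599 CPM to 458 and 415 CPM (-0.48 and -0.53), and Atp5g3 from 344 and 360 CPM to 205 and 203 CPM (-0.75 and -0.83). Atp5g1 thus supplied 55.9% and 56.9% of subunit c UMIs in progenitors and 43.1% and 46.5% in late neutrophils, while the share of Atp5g2 went from 28.7% and 26.9% to 39.3% and 35.9%. The interval of the late neutrophil share of Atp5g1 ran from 42.0% to 44.3% for control and from 45.3% to 47.7% for knockdown cells. These are shares of mRNA tags, with no protein measured, and those for Atp5g1 and Atp5g2 carry the reservation on shared 3′ words given with them.

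Other complex V members spread on both sides. Atp5h was the highest, at 512 and 476 CPM in progenitors and 616 and 575 CPM in late neutrophils (log2 0.27 in both libraries, and 0.08 and 0.18 at the least over the alternatives), although 57.3% of its 3′ words are shared with other genes. Atp5e, the epsilon subunit, was level, at 0.00 and -0.06. Besides Atp5g1 and Atp5g3, the members called lower were Atp5a1, the alpha subunit, at -0.78 and -0.67, and Atp5o, which joins the peripheral stalk to the catalytic head, at -0.73 and -0.74.

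**Figure D3:**
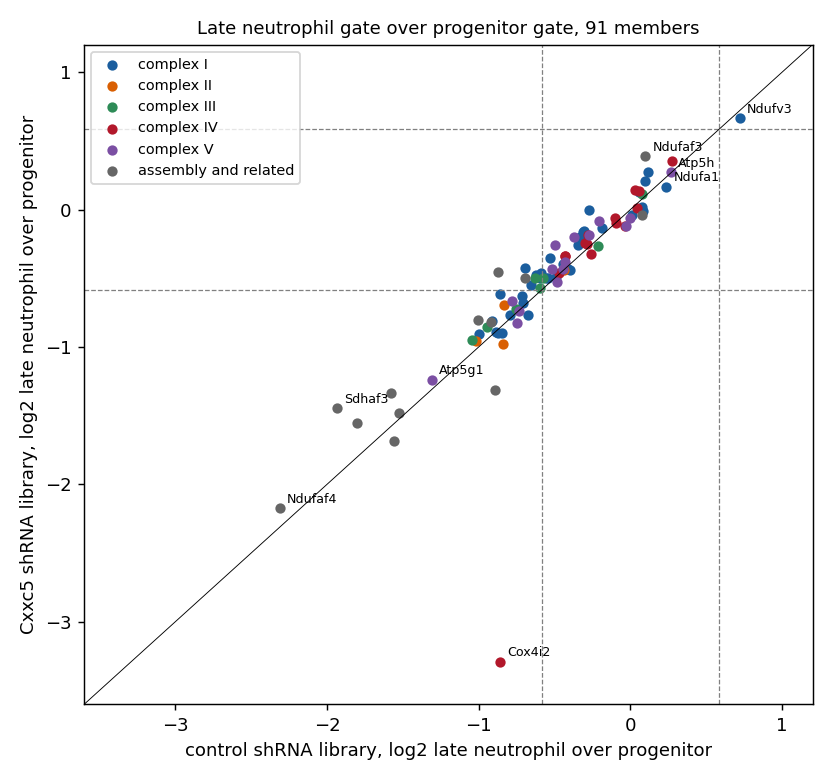
Log2 ratio of late neutrophil over progenitor CPM for each of the 91 members, in the control library (horizontal axis) and the knockdown library (vertical axis), coloured by complex, with dashed lines at 1.5-fold and the line of equality. Ndufv3 alone lies past the upper lines, Ndufaf4 and Atp5g1 lie far down the diagonal, and Cox4i2 departs from it on few UMIs.

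The assembly genes gave the lowest ratios. Ndufaf4, a complex I assembly factor, was at 117 and 111 CPM in progenitors, 62.8 and 66.7 CPM in early neutrophils and 23.7 and 24.6 CPM in late neutrophils (log2 -2.31 and -2.18). Sdhaf1 and Sdhaf3, which help place iron-sulfur clusters in Sdhb, were at -1.80 and -1.56, and at -1.93 and -1.45. Ndufaf2, a relative of Ndufa12 that holds its place during assembly, was at -1.52 and -1.48. Of the 4 assembly genes not called lower, Ndufaf3 was at 55.2 and 62.5 CPM in progenitors and 59.1 and 81.8 CPM in late neutrophils (log2 0.10 and 0.39), and Sdhaf2, which attaches the flavin of Sdha, at 30.4 and 35.05 against 32.1 and 34.0 CPM (0.08 and -0.04). Among 31 further assembly factors outside the symbol rule, 18 of the 30 tested were lower and 0 higher in late neutrophils, with medians of -0.82 and -0.69. Among all genes 37.4% were lower and 7.85% higher, with medians of -0.50 and -0.48.

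The differences of Atp5g1, Ndufaf4 and Uqcr11 were graded. Cells of both neutrophil gates were divided into 5 bins by the sum of late neutrophil markers per 10000 UMIs, with 96 to 720 cells per bin and library. From the bin below 10 to the bin of at least 300, Atp5g1 went through 1050, 852, 725, 524 and 239 CPM in the control library and through 1073, 887, 777, 601 and 267 CPM in the knockdown library. Ndufaf4 went from 68.0 and 72.1 CPM to 10.1 and 12.6 CPM, and Uqcr11 from 670 and 707 CPM to 221 and 280 CPM. Ndufv3 was highest in the middle bin, at 555 and 524 CPM, and was at 468 and 466 CPM in the last. Cox5a was at 1153 and 1175 CPM in the first bin and 916 and 1006 CPM in the last. Levels of all genes were not computed by bin. Within the last bin median depth was 9931.5 and 7010.5 UMIs, and the 50 genes with most UMIs took 37.0% and 36.5% of the total, against 28.1% and 27.9% in the first bin. With those 50 genes removed from the denominator, members summed to 48094 and 48193 CPM in the first bin and 35357 and 37243 CPM in the last.

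**Figure D4:**
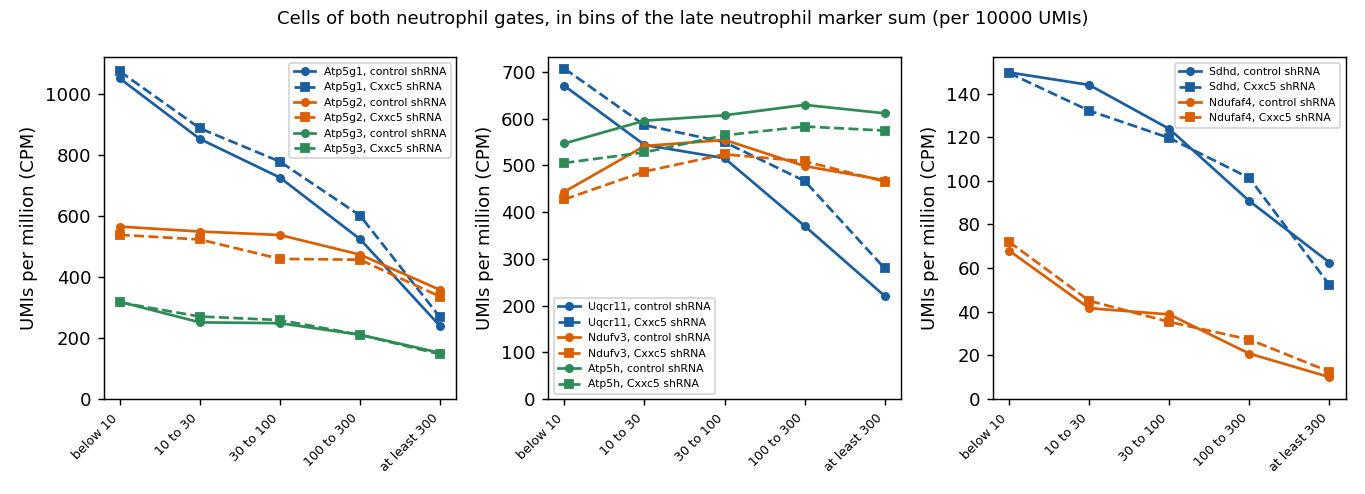
CPM of 8 members (vertical axes, from 0) in cells of both neutrophil gates, in 5 bins of the late neutrophil marker sum per 10000 UMIs (horizontal axes), in the control (solid) and knockdown (dashed) libraries. Atp5g1 crosses below Atp5g2 in the last bin of both libraries, Ndufaf4 and Sdhd are lowest there, and Atp5h stays between 506 and 630 CPM.

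The promoter motifs were counted again with this contrast. Of the 25 lower members with a promoter window, 10 held the NRF1 motif (40.0%), among them Sdha, Sdhd, Ndufaf4 and Ndufb4, and of the 53 others 11 did (20.8%), among them Cox6a1 and Ndufa11. Among all genes with at least 200 UMIs and a window, the motif occurred for 14.4% of those lower in late neutrophils and 12.3% of the rest. Atp5g1, the lowest complex V member, had no NRF1 match in its window, and Atp5g2 had 1.

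Early neutrophils lay close to progenitors. Members summed to -0.05 and -0.04 on the log2 scale, 0 of 91 were called higher and 3 lower (Cox4i2, Ndufaf4 and Sdhaf1), where among all genes tested 4.27% were higher and 7.38% lower. With gate cuts doubled, which left 37 and 109 progenitor cells, none of the 3 was called lower. Complex IV was level, at 0.00 in both libraries, and complex II was at -0.29 and -0.24.

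In monocytes 1 isoform, Cox4i2, stood far above its progenitor level. Their members summed to 33372 and 33928 CPM, at -0.09 and -0.07 on the log2 scale against progenitors. With gate cuts doubled, which left 57 and 61 monocytes, the sum was at -0.36 and -0.21, and 13 members were lower. Those cuts left 37 and 109 progenitors, and the share of all genes lower with them was not computed. Complex II was at 649 and 671 CPM against 608 and 580 CPM (log2 0.09 and 0.21), but with cells thinned to 2000 UMIs the control ratio was -0.15. At the main cuts, against a background of 8.49% higher and 6.29% lower among all genes, 1 member was higher, Cox4i2, and 1 lower, Sdhaf3. Cox4i2, an isoform of subunit 4 known from lung and from hypoxic cells, had 116 and 107 UMIs (32.1 and 39.1 CPM) in control and knockdown monocytes, against 3.82 and 3.43 CPM in progenitors (log2 3.07 and 3.51). It was detected in 26.4% and 21.7% of monocyte-gate cells, against 1.28% and 0.295% of late neutrophils, whose median depths were 12518 and 8257 UMIs beside 15292 and 9234 in monocytes. When each cell was thinned to 2000 UMIs the shares were 5.02% and 5.69% in monocytes and 0% and 0.147% in late neutrophils. Even in monocytes Cox4i2 made up only 2.20% and 2.65% of the UMIs of the Cox4i1 and Cox4i2 pair.

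Mast cells and basophils differed in their complex IV isoforms. In that gate 3 members were higher than in progenitors (Cox4i2, Cox6b2 and Cox7a2l) and 3 lower (Cox7a2, Ndufaf5 and Ndufaf6), with 8.67% and 7.93% among all genes. Cox6b2 had 39 and 53 UMIs, or 30.2 and 32.5 CPM, against 5.22 and 7.27 CPM in progenitors (log2 2.53 and 2.16), and it was between 4.42 and 9.30 CPM in the neutrophil and monocyte gates. It made up 4.35% and 4.57% of the UMIs of the Cox6b1 and Cox6b2 pair. Cox7a2l, a Cox7a relative, was at 552 and 485 CPM against 304 and 311 CPM (log2 0.86 and 0.64). Cox7a2 was at 541 and 610 CPM against 860 and 916 CPM (-0.67 and -0.59). With cuts doubled Cox7a2l was at 0.14 in the knockdown library, and with cuts halved Cox7a2 was at -0.52 and -0.41, so both calls were lost. The Cox7a2 call was also lost with cells past 2 cuts put in 1 gate and without the 50 genes of most UMIs. Cox4i2 was not called with cuts halved, with cells thinned or without the deepest 5% of cells. Cox6b2 was called higher in every setting. The members called lower in this gate numbered 0 to 12 over the alternatives, for which the share of all genes was not computed. The share of Cox7a2l within the 3 Cox7a genes was thus 50.4% and 44.2%, against 26.1% and 25.3% in progenitors, 27.0% and 24.5% in late neutrophils and 35.04% and 33.7% in monocytes. In the small dendritic gate it was 52.2% and 48.7%. In the mast cell and basophil gate Cox4i2 rested on 9 and 17 UMIs, and Ndufaf5 on 8 and 15.

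**Figure D5:**
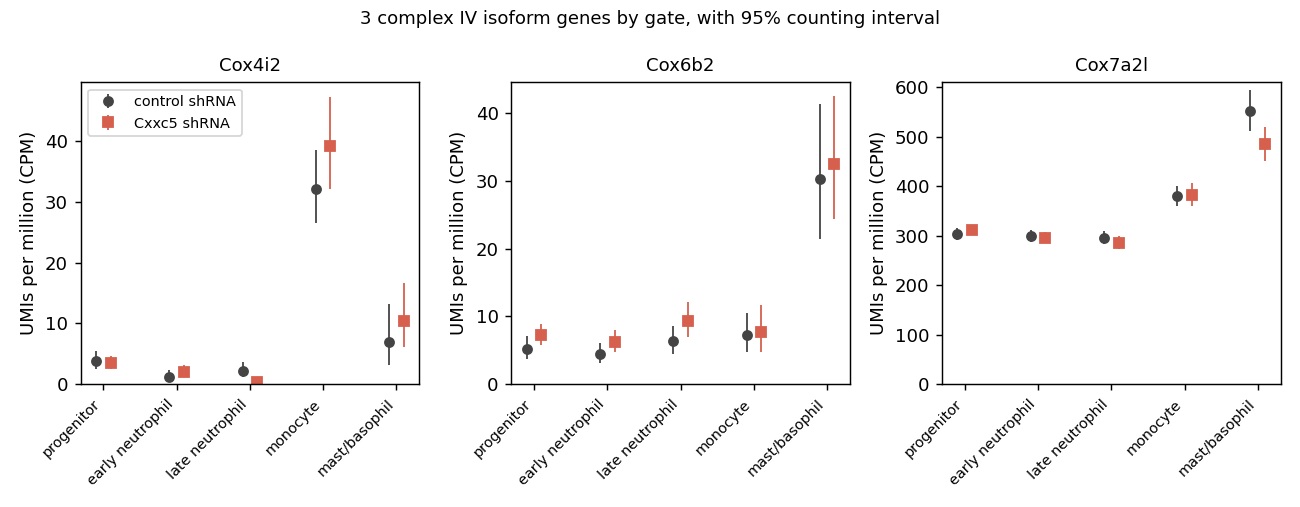
CPM (vertical axes, from 0) of the complex IV isoform genes Cox4i2, Cox6b2 and Cox7a2l in 5 gates of the control (circles) and knockdown (squares) libraries, with 95% counting intervals. Cox4i2 is highest in monocytes, at 32.1 and 39.1 CPM, and of the 5 gates drawn, without the small dendritic gate, mast cells and basophils have the highest Cox6b2 and Cox7a2l.

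Within each gate the libraries were compared again, over members with at least 50 UMIs. Of 91 members in progenitors 2 were at least 1.2-fold higher and 3 lower in the knockdown library, with 22.1% of all genes called in either direction. In early neutrophils 2 of 90 were higher and 1 lower (background 24.0%), in monocytes 2 of 88 and 1 (28.7%), in late neutrophils 5 of 88 and 0 (32.9%), and in mast cells and basophils 9 of 86 and 0 (38.2%, of which 22.6% higher). Each of these shares lay below its background, which covers many shallower genes. With each cell thinned to 2000 UMIs the counts were 16 in late neutrophils, 17 in monocytes and 22 in mast cells and basophils, where 43.1%, 35.7% and 42.2% of all genes were called. With gate cuts doubled they were 10 in progenitors, 13 in monocytes and 19 in mast cells and basophils, where 37.1%, 39.4% and 42.3% of all genes were.

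In the late neutrophil gate 3 of the 5 members called higher had intervals above 0. Atp5b was at 526 and 641 CPM in control and knockdown late neutrophils (log2 0.29, interval 0.22 to 0.35), and at 743 and 768 CPM in progenitors. Ndufs4, an accessory subunit needed to complete complex I, was at 152 and 189 CPM (0.32, interval 0.19 to 0.44), and Ndufaf3 at 59.1 and 81.8 CPM (0.47, interval 0.27 to 0.67). For Cox6b2 and Sdhaf1, the other 2, the interval included 0. In progenitors Sdhaf4 (64.3 and 53.6 CPM, log2 -0.26) and Sdhaf3 (28.5 and 22.5 CPM, -0.35) were lower with intervals below 0.

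In mast cells and basophils the members summed to 29351 and 31471 CPM (log2 0.10, interval 0.08 to 0.12), the widest gap of any gate. Of the 9 members called higher there 6 had intervals above 0, among them Cox6a1 (581 and 702 CPM), Atp5o (435 and 535 CPM) and Uqcr10 (377 and 466 CPM). Markers of the gate differed between libraries within it, in both directions. Of 11, the CPM was lower in knockdown cells for 7, among them Prss34 (963 and 290), Cpa3 (1361 and 997), Mcpt8 (1353 and 1091) and Tpsb2 (262 and 127), and higher for 4, among them Cma1 (344 and 699) and Mcpt2 (469 and 538), and their part in the result was not tested.

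Other genes of the pathway were followed as whole lists. The counts called between libraries stand beside 13.8% of all genes with at least 200 UMIs. Of the 13 mitochondrially encoded subunits 1 was called between libraries, mt-Atp8, at 99.3 and 69.0 CPM (log2 -0.53), although it overlaps mt-Atp6 and reads of the 2 are hard to separate. Of 15 electron carrier genes 2 were called: Cycs, cytochrome c, at 527 and 291 CPM (-0.85), and Coq10b, a coenzyme Q binding protein, at 9.95 and 12.3 CPM (0.31). Cyc1, the cytochrome c1 of complex III, which the symbol rule does not take in, was at 298 and 334 CPM (0.16), like Uqcrq. Of 16 tricarboxylic acid cycle genes 1 was called, Suclg2, a succinate-CoA ligase subunit, at 24.8 and 40.4 CPM (0.70), and of 7 genes for ADP, ATP and phosphate exchange 1, the outer membrane channel Vdac1, at 132 and 170 CPM (0.37). None of the 31 further assembly factors and none of the 10 measured regulators of mitochondrial biogenesis was 1.2-fold apart.

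In late neutrophils, 8 of 15 electron carrier genes, 10 of 16 tricarboxylic acid cycle genes, 6 of 10 regulators and 4 of 13 mitochondrially encoded subunits were lower than in progenitors by the 1.5-fold rule, and 0 in each of these lists were higher. Their median log2 ratios, -0.84 and -0.70, -0.71 and -0.73, -0.82 and -0.98, and -0.33 and -0.42, stand beside -0.49 and -0.44 for the members and -0.50 and -0.48 for all genes, of which 37.4% were lower. Of the 7 genes for ADP, ATP and phosphate exchange 1 was lower and 0 were higher, with medians of -0.52 and -0.41. The 6 lower regulators were Tfam, Tfb1m, Tfb2m, Polrmt, Pprc1 and Ppargc1b. Not called were Nrf1, at -0.20 and -0.05, and the GABP genes Gabpa, at -0.05 and -0.39, and Gabpb1, at -0.02 and -0.28.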

How the data were processed

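Droplet-based 3′ libraries of 2 pooled groups were analysed from the gene by cell matrices the authors deposited, which hold UMI counts. Per the submitters' processing notes, Cell Ranger 2.1.1 and the mm10 build were used; other settings are not given in the sources used here. Cells with at least 500 genes and at most 10% mitochondrial UMIs were kept; no doublet caller was run, and cells past 2 or more gate cuts were left out of the gates. Cuts on marker UMIs per 10000 were 30 (late neutrophil), 60 (early neutrophil), 8 (monocyte), 15 (dendritic), 10 (mast cell and basophil) and 150 (progenitor, with early neutrophil markers below 10). Counts were summed per library and gate and scaled to UMIs per 1000000 (CPM). With 1 library per group no test was made: intervals are exact Poisson, binomial or Clopper-Pearson intervals at 95%, and a fold of 1.2 between libraries or 1.5 between gates, in both libraries, counted as called. The members and lists were chosen with earlier results of these data known, and gate cuts were set after marker sums were seen. Genes were named as the most abundant and the extremes of each complex, the called members, isoform families, genes beside the 200 UMI minimum and up to 4 genes per further list; others were chosen after their values were seen. Gene models came from GENCODE M21 and promoter windows from RefSeq. Alternatives changed gate cuts, depth, denominators, weights and minima. The interval computation was checked on simulated Poisson counts (9763 genes), where 95.2% of unchanged genes' intervals held the true value. Those counts follow the model of the intervals, so the check cannot speak to spread between cells, mice or libraries. Python 3.11.15, numpy 2.4.6, scipy 1.17.1 and pandas 2.3.3 were used.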

Additional observations from a re-analysis of the deposited data

How the results depend on the processing

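No paired analysis was possible because each group is 1 pooled library. Small differences changed sign: 32 of 91 member ratios between libraries (none above 0.136 in size) and 9 of 63 summed levels did under at least 1 alternative, the largest being complex II in control monocytes. None of the 18 ratios between gates recomputed for single members did; Cox4i2 in monocytes gave no value with cuts doubled, which left 37 and 109 progenitors with 0 UMIs of it. For the summed level of each complex, all cells, the all-member log2 ratio of knockdown over control, 0.03, was 0.0597 with cells thinned to 2000 UMIs, 0.0599 weighted equally, 0.0255 without the 50 top genes, 0.0230 with gate shares held, 0.0404 without the deepest 5% of cells and 0.0127 centred on all genes. The 1 called member became 3 when thinned, 2 with no minimum, and 0 with cells weighted equally, ratios centred or a 1000 UMI minimum. The late neutrophil over progenitor sum, -0.36 and -0.32, was -0.30 and -0.26 with cuts halved, -0.50 and -0.36 doubled, -0.21 and -0.18 without the top genes, and -0.42 and -0.35 thinned. The Atp5g1 share of subunit c was 54.1% in thinned control progenitors, 55.8% and 55.7% in knockdown progenitors with cuts halved and doubled, and in late neutrophils 44.3% and 41.0% (control) and 48.1% and 44.6% (knockdown). Members lower in late neutrophils numbered 22 to 33, and the share of all genes lower was computed at the main setting only. The causes were not tested.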
